A study of Homo sapiens with 2 samples.

Results

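The genes described here encode core proteins of the spliceosome and proteins that bind pre-mRNA. They were chosen by symbol, as all RefSeq protein-coding genes whose names begin with SNRP, SF3A, SF3B, SRSF, HNRNP, U2AF or PRPF, which gave 74 of the 19974 protein-coding genes on chromosomes 1 to 22 and X. Their chromatin was examined in 2 peak lists from PANC-1, an established human cell line of pancreatic ductal adenocarcinoma. One list came from cells given the solvent DMSO and the other from cells given inflachromene, a small molecule known to bind HMGB1 and HMGB2. Both samples are of the same line and went through ChIPmentation, in which the Tn5 transposase adds sequencing adapters to chromatin held on an antibody. Cells of both groups were crosslinked with EGS at 15 mM for 30 min, followed by 10 min in formaldehyde at 1%. No source used here gives the target of the antibody, the dose of inflachromene or how long it was applied. Each treatment has 1 sample, so no difference below has a replicate check, no p-value is given, and the comparison is between these libraries.

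Splicing removes introns from pre-mRNA. The U1 and U2 small nuclear ribonucleoproteins (snRNPs), built on rings of Sm proteins, recognise the 5′ splice site and the branch point. U2AF reads the 3′ splice site, and SF3a and SF3b are parts of the U2 snRNP. The PRPF proteins belong largely to the later complexes that carry out catalysis. SR proteins and hnRNPs bind exons and introns and influence which splice sites are used; most of these genes are active in all dividing cells.

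A gene was called bound where the summit of a peak, its highest point, lay within 1000 bp of either end of the annotated gene. The strength of a peak is given as its pileup, the number of fragments over the summit, and as the fold enrichment deposited by the authors, the summit pileup over the local background. The DMSO list held 15186 peaks on the assembled chromosomes and the inflachromene list 10836. From the background, the inflachromene library was inferred to hold 0.964 times as many fragments as the DMSO library. The fragment length was inferred as 152 bp in DMSO and 166 bp in inflachromene, and the lowest background was 0.651 and 0.683 fragments. Longer fragments raise the pileup, so 0.964, which compares fragment numbers alone, is not an exact mark of an unchanged pileup. As a check of the cell type, KRT8 and KRT18 shared 1 peak and SOX9 had its own in both lists, KRT19 (19 fragments) and MUC1 (23) had one in DMSO alone, and KRT7, EPCAM, CDH1 and TSPAN8 had none. Of 4 mesenchymal markers, VIM had a peak in both lists and ZEB1 one of 17 fragments in DMSO alone. None of 7 acinar and islet markers and none of 6 endothelial and fibroblast markers had a peak, and of 6 immune markers SPI1 had one in both lists and CD14 in the inflachromene list.

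Nearly all of the 74 genes were bound. A DMSO peak was present at 67 of them (90.5%, exact binomial 95% interval 81.5 to 96.1), against 45.7% of all protein-coding genes, and an inflachromene peak at 66 (89.2%, 79.8 to 95.2), against 38.0%. Both lists had a peak at 66, while U2AF1 had only a DMSO peak. No member was bound in inflachromene without DMSO, against 4.45% of all inflachromene-bound genes. This depended on the setting. With both lists cut to the length of the shorter, SF3B4, SRSF8 and SNRPB2 had an inflachromene peak alone. With a window of 500 bp SRSF8 and SNRPA did. The 7 members with no peak in either list were SNRPN, SRSF12, HNRNPA1L3 and the 4 HNRNPC-like genes HNRNPCL1, HNRNPCL2, HNRNPCL3 and HNRNPCL4. Of the 26 hnRNP members these are 5, and 21 were bound; all 12 PRPF and all 9 SF3A and SF3B members were bound.

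The unbound members lay far from any peak, apart from SRSF12. SNRPN, an imprinted gene known for its expression in brain and a paralog of SNRPB, spans chr15:24823637-24978723 and held no summit inside; the nearest DMSO summit was 460458 bp from an end. The nearest DMSO summit was 251476 bp from HNRNPCL1 and 839371 bp from HNRNPA1L3. At SRSF12 it was 14253 bp away, with 30 fragments, and the nearest inflachromene summit was 14247 bp away, with 27. The HNRNPCL genes are near-identical copies, so their reads are hard to place, and their lack of peaks is uncertain.

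The promoters of members with particular values are shown here because the strongest DMSO summit lay in the 250 bases before the start at 46 of the 60 bound members with an annotated start. Sequences are from RefSeq (GRCh38.p14, which shares its coordinates with hg38), read 5′ to 3′ in the direction of transcription. Each is the longest stretch of the 250 bases before the start that lies outside every gene of the table. Capitals mark matches on either strand to the motifs listed further below.
PRPF8 (chr17:1684868-1685117, minus strand): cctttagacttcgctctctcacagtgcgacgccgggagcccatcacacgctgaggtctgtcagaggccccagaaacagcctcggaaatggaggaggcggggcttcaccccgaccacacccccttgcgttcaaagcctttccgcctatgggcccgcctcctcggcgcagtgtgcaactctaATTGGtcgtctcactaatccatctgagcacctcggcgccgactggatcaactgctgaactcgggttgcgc
HNRNPC (chr14:21269443-21269692, minus strand): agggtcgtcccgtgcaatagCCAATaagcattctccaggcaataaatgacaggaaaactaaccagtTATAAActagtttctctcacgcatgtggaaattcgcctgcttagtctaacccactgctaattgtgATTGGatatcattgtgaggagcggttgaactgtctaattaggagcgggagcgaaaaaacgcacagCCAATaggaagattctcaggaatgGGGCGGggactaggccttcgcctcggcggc
HNRNPLL (chr2:38602929-38603178, minus strand): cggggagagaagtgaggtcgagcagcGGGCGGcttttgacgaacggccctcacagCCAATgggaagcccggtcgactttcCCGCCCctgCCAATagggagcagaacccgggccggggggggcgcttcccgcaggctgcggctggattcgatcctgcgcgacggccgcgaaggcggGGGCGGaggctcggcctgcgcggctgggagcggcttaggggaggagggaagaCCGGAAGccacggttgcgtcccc
HNRNPR (chr1:23344285-23344534, minus strand): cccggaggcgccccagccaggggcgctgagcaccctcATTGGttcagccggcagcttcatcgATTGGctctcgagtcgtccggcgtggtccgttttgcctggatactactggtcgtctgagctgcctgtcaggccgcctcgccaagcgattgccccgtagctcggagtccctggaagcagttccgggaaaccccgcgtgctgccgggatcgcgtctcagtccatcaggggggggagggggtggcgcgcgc
SNRPB (chr20:2470790-2471039, minus strand): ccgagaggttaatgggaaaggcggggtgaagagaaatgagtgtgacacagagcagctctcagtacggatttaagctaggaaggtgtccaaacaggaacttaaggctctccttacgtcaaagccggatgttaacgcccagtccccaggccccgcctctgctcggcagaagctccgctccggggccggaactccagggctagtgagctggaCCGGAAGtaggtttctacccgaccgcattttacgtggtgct
SF3A3 (chr1:37990023-37990272, minus strand): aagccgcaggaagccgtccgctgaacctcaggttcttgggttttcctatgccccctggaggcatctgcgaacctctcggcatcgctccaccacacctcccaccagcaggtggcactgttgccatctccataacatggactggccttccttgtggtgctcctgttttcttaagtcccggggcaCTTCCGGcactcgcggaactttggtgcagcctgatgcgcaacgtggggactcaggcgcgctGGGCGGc
U2AF1 (chr21:43107579-43107689, minus strand): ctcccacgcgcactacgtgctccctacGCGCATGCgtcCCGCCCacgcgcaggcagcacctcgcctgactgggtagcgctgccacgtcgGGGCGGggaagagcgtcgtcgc
PRPF8 had the highest fold enrichment of all members and the lowest ratio of inflachromene to DMSO pileup. HNRNPC and HNRNPLL had the next lowest ratios, HNRNPR kept one of the strongest peaks, SNRPB and SF3A3 had more fragments in inflachromene, and U2AF1 had no inflachromene peak.

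The Sm ring genes had peaks of moderate height that differed little between the libraries. SNRPB, encoding the B and B′ proteins, had 30 fragments in DMSO (exact Poisson 95% interval 20.2 to 42.8) and 34 in inflachromene (23.5 to 47.5). SNRPE had 31 (21.1 to 44.0) and 38 (26.9 to 52.2). SNRPD2 had 52 and 51, SNRPD3 had 23 and 22, and SNRPF had 29 and 24. SNRPG had 37 and 29 fragments, and SNRPD1 had 16 and 13. Over the 7 bound Sm genes the inflachromene pileup divided by the DMSO pileup had a median of 0.957, with 5 lower and 2 higher in inflachromene. All intervals of the 2 libraries overlapped at these genes.

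Among the genes of proteins found only in the U1 or the U2 snRNP, SNRPA had the lowest ratio. SNRPA encodes an RNA-binding protein of the U1 snRNP, and its summit, 537 bp upstream of the start, held 60 fragments in DMSO (45.8 to 77.2) and 39 in inflachromene (27.7 to 53.3). The ratio of 0.65 had an exact 95% interval, from the 2 counts alone, of 0.423 to 0.989. This includes the ratio of fragment numbers, 0.964, which takes no account of the difference in fragment length. The summit was shared with an end of ACTMAP, a gene that starts head to head with SNRPA. It lay nearer to the ACTMAP start, 189 bp upstream of it. SNRPA1, encoding a protein of the U2 snRNP, went the other way with 22 and 28 fragments, the highest ratio of all members at 1.27 (0.702 to 2.33). SNRPC, encoding a U1 protein that helps to read the 5′ splice site, had 20 fragments in both libraries, and SNRPB2, for another U2 protein, had 11 in both.

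The SF3a and SF3b genes were bound without exception, with a median DMSO fold enrichment of 13.0 against 9.37 over all bound genes. SF3B6, encoding the p14 branch point subunit, had 78 fragments in DMSO (61.7 to 97.3) and 55 in inflachromene (41.4 to 71.6), at a summit that also lay at ends of FAM228B and TP53I3. SF3B1, the largest subunit and the one most often mutated in cancers, had 49 (36.3 to 64.8) and 35 (24.4 to 48.7) fragments at chr2:197434980-197435330, with fold enrichments of 16.2 and 11.8. SF3B2 had 48 and 40 fragments and SF3B5 had 49 and 45. The peaks of this group with fewer DMSO fragments showed no common direction. SF3B3 had 20 fragments in both libraries and SF3B4 had 14 and 16. SF3A3 had 38 and 44, at fold enrichments of 13.6 and 15.5. SF3A2 had 31 and 22 fragments, and SF3A1 had 21 (13.0 to 32.1) and 13 (6.92 to 22.2), a ratio of 0.619 whose interval ran from 0.285 to 1.30.

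Of the 3 U2AF genes, U2AF2 and U2AF1L4 were bound in both libraries and U2AF1 in DMSO only. U2AF1 encodes the small subunit, which contacts the AG of the 3′ splice site. Its DMSO peak, chr21:43107535-43107711, held 15 fragments (8.40 to 24.7) at 8.56-fold, with the summit 21 bp upstream of the start, and no inflachromene peak was called there. The nearest inflachromene summit was 118557 bp away. At a background within 0.25 of the one at U2AF1, the lowest pileup called in inflachromene was 7 fragments and the median 13, over 807 peaks. The inflachromene pileup at the U2AF1 start itself was not analysed here. U2AF1 is known to have a near-identical copy in the hg38 assembly, so the placing of its reads is uncertain. U2AF2, the large subunit, had 54 fragments in DMSO (40.6 to 70.5) and 57 in inflachromene (43.2 to 73.9) at a summit 549 bp upstream of its start. A second peak near its 3′ end, with 40 and 33 fragments, also lay at an end of EPN1. U2AF1L4, a paralog of the small subunit, had 61 and 45 fragments at a promoter shared with PSENEN.

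Among the PRPF genes PRPF8 had the strongest peak and the largest drop. PRPF8 encodes the protein at the catalytic centre of the spliceosome. Its DMSO peak, chr17:1684685-1685117, held 60 fragments (45.8 to 77.2) at 17.8-fold, and the inflachromene peak held 33 (22.7 to 46.3) at 12.5-fold. The ratio was 0.55 (0.348 to 0.855). The DMSO interval's low end and the inflachromene interval's high end still met. PRPF38A had 35 and 23 fragments and PRPF6, a U5 snRNP bridging protein gene, had 34 and 25. PRPF4, encoding a protein of the U4/U6 snRNP, had 29 and 24 fragments at a start shared with CDC26. PRPF19, for a ubiquitin ligase of the spliceosome, had 26 and 27, PRPF3 had 19 and 23, and PRPF40B had 20 and 23. PRPF31 had 21 and 17 fragments, PRPF18 had 17 and 16, PRPF39 had 16 in both, and PRPF38B had 20 and 15. Over the 12 genes the median ratio was 0.858, with 8 lower, 1 equal and 3 higher in inflachromene.

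The SR protein genes, of which 11 of 12 were bound, had a median DMSO pileup of 34 fragments, with 8 lower, 2 equal and 1 higher in inflachromene. SRSF2, SRSF3 and SRSF4 had the most fragments. SRSF4 had 49 in DMSO and 47 in inflachromene, at 13.8-fold and 12.5-fold. SRSF2 had 49 and 39, and SRSF3 had 45 and 37. SRSF11 had 38 and 31 fragments, SRSF9 had 34 and 28, and SRSF6 had 24 and 23. SRSF7 had 25 and SRSF10 had 26 in both libraries. SRSF5 showed the lowest ratio of this group, 0.657 (0.371 to 1.14), with 35 and 23 fragments. SRSF8, a paralog of SRSF2, had the weakest peak, 14 and 17 fragments at 4.78-fold and 5.65-fold. Its summits, 597 and 237 bp downstream of the start, belonged to peaks that did not overlap.

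SRSF1, encoding the founding SR protein, counted as bound in both lists only through its 3′ end. The DMSO peak at its start, chr17:58007119-58007774, held 27 fragments (17.8 to 39.3) at 7.18-fold over 656 bp. No inflachromene summit lay within 1000 bp of that start. At a background within 0.25 of this one, the lowest pileup called in inflachromene was 14 fragments. The other peak, 588 bp from the 3′ end and also at an end of VEZF1, held 31 fragments in DMSO and 20 in inflachromene. The ratio of 0.741 used for SRSF1 therefore sets different ends of the gene against each other. When the start alone was counted, SRSF1 and U2AF1 were thus the 2 members with a DMSO peak and no inflachromene peak.

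The hnRNP genes included the tallest peak of the 74, at HNRNPL with 97 fragments in DMSO (78.7 to 118) and 72 in inflachromene (56.3 to 90.7), and most of them were lower in inflachromene. The median DMSO pileup over the 21 bound hnRNP genes was 47 fragments, against 28 over all bound genes. The inflachromene pileup was lower at 19 of them, equal at HNRNPDL (34 fragments) and higher at HNRNPH3 (43 and 49); of all genes bound in both, 77.4% had a lower pileup. The median ratio was 0.744, against 0.821 over all such genes. The difference between these medians was not tested.

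Of the 5 members with the lowest ratios among those with a mean pileup of at least 20, 4 were hnRNP genes and the other was PRPF8. HNRNPC, which encodes a uridine-binding protein, had 47 fragments in DMSO (34.5 to 62.5) and 27 in inflachromene (17.8 to 39.3), a ratio of 0.574 (0.344 to 0.941). HNRNPLL, a paralog of HNRNPL known from alternative splicing in lymphocytes, had 67 (51.9 to 85.1) and 40 (28.6 to 54.5), a ratio of 0.597 (0.393 to 0.896). HNRNPD, encoding the AU-rich element binding protein AUF1, had 58 and 35, a ratio of 0.603 (0.385 to 0.934). HNRNPA3 had 76 and 46, a ratio of 0.605 (0.410 to 0.884). At these 5 genes the interval of the ratio lay below 0.964, the ratio of fragment numbers; the same held for 6.33% of all genes bound in both. The 5 of 66 is near that background. At no member did the interval lie above 0.964, against 0.179% of all genes.

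Other hnRNP genes with tall peaks kept more of their height. HNRNPR had 78 fragments in DMSO (61.7 to 97.3) and 74 in inflachromene (58.1 to 92.9), with summits 1 bp apart. HNRNPAB had 60 and 56 at the same base. HNRNPH2 had 72 and 63 at 16.8-fold and 15.6-fold, at a start head to head with GLA. HNRNPA1, encoding a well studied splicing repressor, had 60 and 50 fragments at a summit that also lay at an end of CBX5. HNRNPA2B1 and CBX3 share a promoter well known as a ubiquitous opening element, whose peak of 815 bp held 69 fragments in DMSO (53.7 to 87.3) and 56 in inflachromene (42.3 to 72.7). HNRNPU, for the scaffold attachment factor, had 38 and 31, and HNRNPM had 39 and 27. HNRNPK had one of the weaker peaks, 23 and 16 fragments, and HNRNPA1L2, a copy of HNRNPA1 whose reads are hard to tell from it, had 19 and 14.

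**Figure D1:**
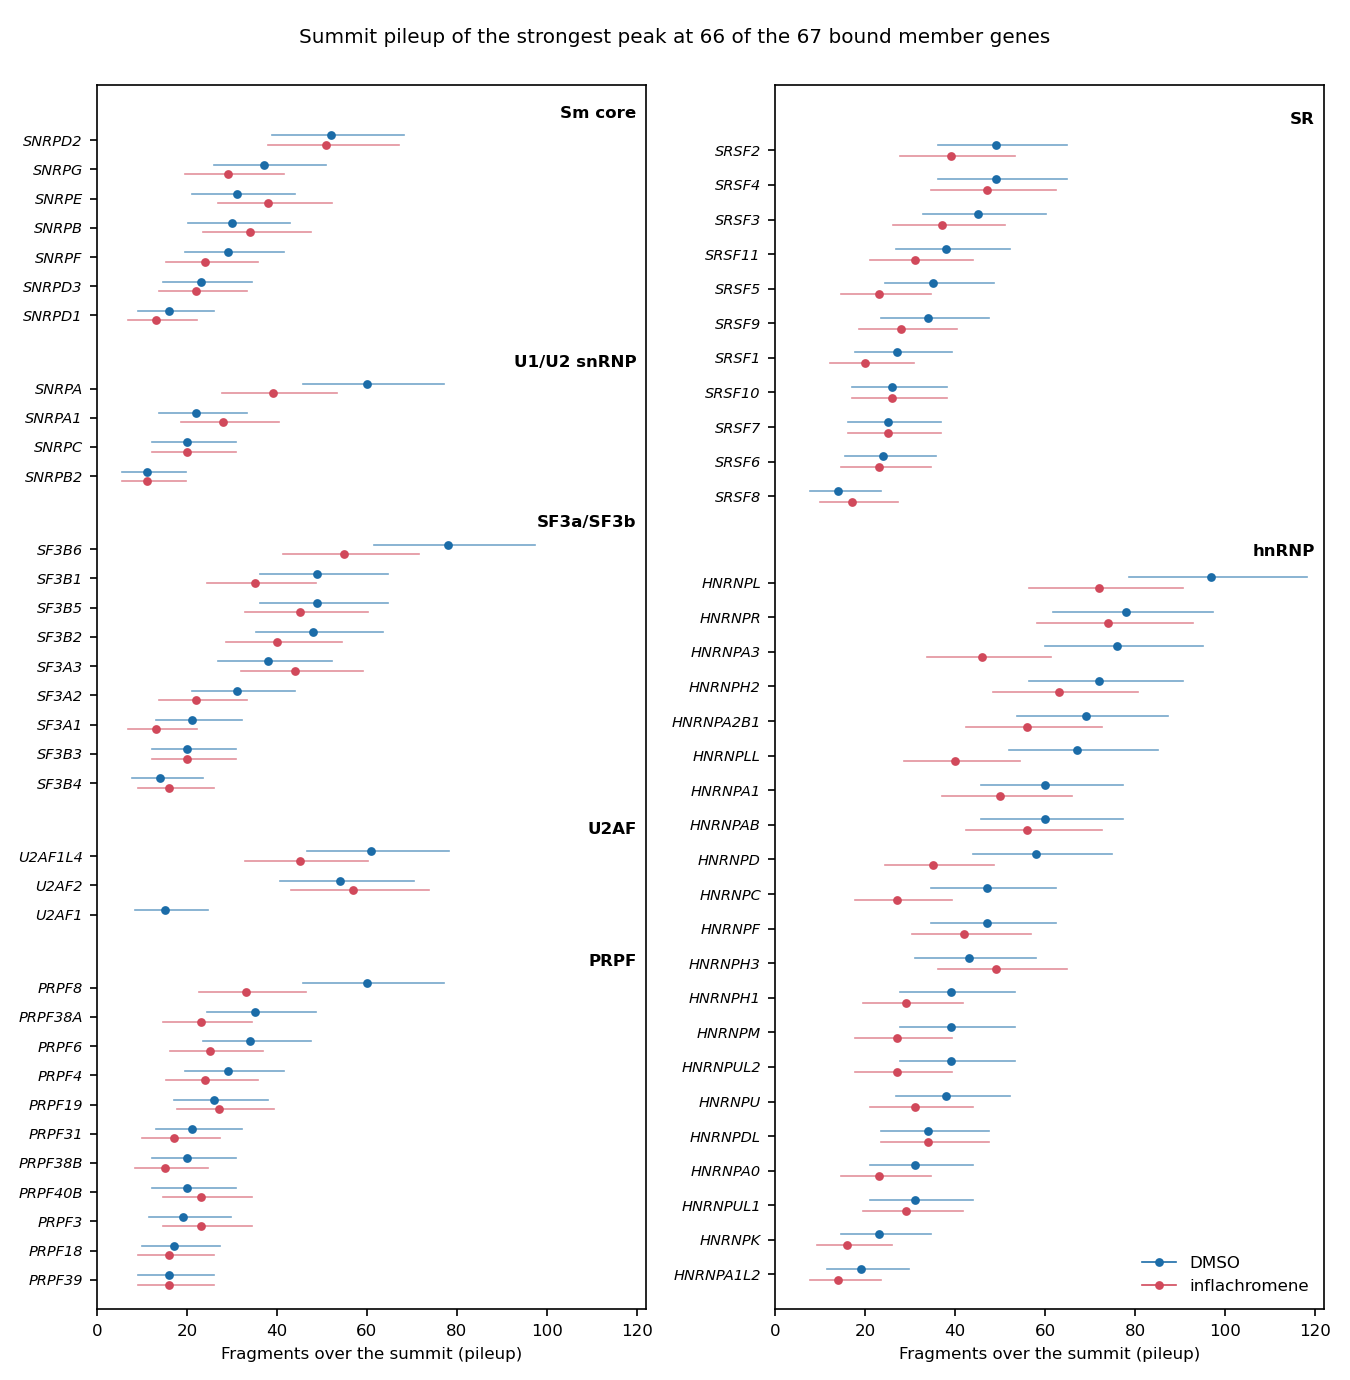
Summit pileup in fragments (horizontal axis, linear) of the strongest DMSO peak at 66 of the 67 bound genes and of the inflachromene peak paired with it, by protein group; points are the single library's count and lines its exact Poisson 95% interval. The hnRNP genes reach the highest counts, 97 at HNRNPL, the Sm genes lie between 13 and 52, and U2AF1 has a DMSO point only; the SRSF1 points come from different ends of the gene.

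Over the 66 members bound in both libraries, the inflachromene pileup was lower at 48, equal at 7 and higher at 11. The median ratio was 0.828, with ratios from 0.55 at PRPF8 to 1.27 at SNRPA1. The median over all 7254 protein-coding genes bound in both was 0.821. A pileup at least 1.5-fold lower in inflachromene was found at 9 members, or 13.6%, against 19.1% of all such genes. These were PRPF8, HNRNPC, HNRNPLL, HNRNPD, HNRNPA3, SF3A1, SNRPA, PRPF38A and SRSF5. No member was at least 1.5-fold higher, against 1.20% of all genes. The members' median thus lay close to that of all genes.

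The protein groups nevertheless spread around that value. Their median ratios ran from 0.744 for the hnRNP genes through 0.824 for the SR, 0.833 for the SF3A and SF3B and 0.858 for the PRPF genes to 0.957 for the Sm genes and 1.00 for the 4 U1 and U2 genes. The groups also differ in height: the median DMSO pileup was 47 fragments for the hnRNP genes, 30 for the Sm genes and 21 for the U1 and U2 genes. Over all genes the median ratio was 0.875 below a mean pileup of 20 fragments, 0.815 from 20 to 30, 0.809 from 30 to 50 and 0.807 at 50 or more. For the members it was 0.813, 0.957, 0.822 and 0.822 in these ranges. With DMSO fold enrichment, over 5 equal groups from weak to strong, the median over all genes fell from 0.98 through 0.882, 0.824 and 0.786 to 0.763. For the members it was 0.915, 0.958, 0.826, 0.883 and 0.714. The DMSO fold enrichment and the ratio both contain the DMSO pileup, and genes without an inflachromene peak have no ratio. The fall over these groups therefore cannot be read as an effect of peak strength. The part of peak strength in the differences between the protein groups was not tested. Each gene's peak was chosen by its DMSO value, for members and all genes alike. The groups were not compared by a test.

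**Figure D2:**
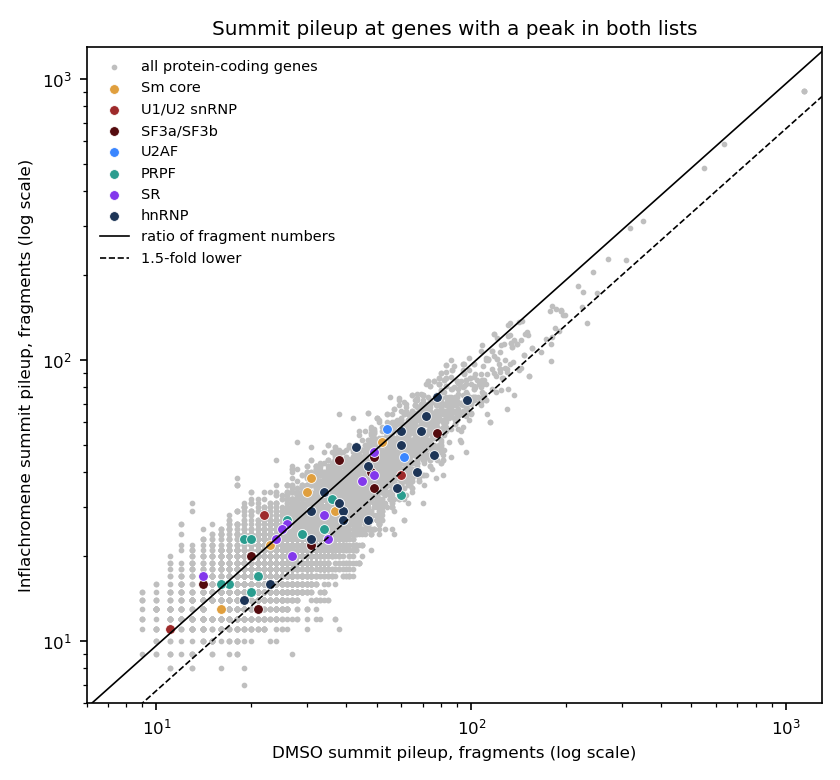
DMSO against inflachromene summit pileup in fragments (both axes logarithmic) for the 7254 protein-coding genes with a peak in both lists (grey) and the 66 members among them (coloured by protein group); the solid line is the ratio of fragment numbers, 0.964, and the dashed line marks 1.5-fold lower. Most members lie between the lines with the other genes, 9 lie on or under the dashed line and 11 have more fragments in inflachromene.

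Few of the members' DMSO peaks had no counterpart in the inflachromene list. Of the 67 DMSO-bound members 1 had no inflachromene peak (1.49%, exact binomial interval 0.0378 to 8.04), against 20.6% of the 9133 DMSO-bound genes. SRSF1 is counted as bound in both only through the peak near its 3′ end. At annotated starts alone, 2 of 60 members (3.33%, 0.406 to 11.5) and 19.8% of all genes lacked an inflachromene peak, and with a window of 500 bp 2 of 64 (3.13%) and 21.2%. Where the strongest DMSO peak and an inflachromene peak had to cover 50% of each other, 7 of 67 members (10.4%, 4.30 to 20.3) and 27.2% of all genes had no such partner. With both lists cut to the length of the shorter, the shares were 1 of 64 (1.56%) and 11.9%. The difference between members and other genes was not tested. To compare like with like, the genes were divided into 5 equal groups by DMSO fold enrichment. In the weakest group, up to 6.79-fold, 53.3% of all genes had no inflachromene peak, and in the next, up to 8.47-fold, 31.5%. The 6 and 15 members in these groups all had one at the gene. They included HNRNPL at 6.15-fold, HNRNPUL1 at 5.07-fold, SRSF7 at 6.61-fold and SNRPB2 at 6.96-fold. SRSF8 at 4.78-fold and SRSF1 at 7.18-fold were also among them, but no inflachromene peak overlapped their strongest DMSO peak. In the middle group, 1 of 19 members and 14.3% of all genes had none, and in the upper 2 groups none of 27 members lacked one, against 3.29% and 0.493% of all genes.

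With the strength of the members, all genes would have been without an inflachromene peak in 16.5% of cases, or 11.1 of 67. Grouped by −log10 p in place of fold enrichment the share was 12.8%, and by pileup 13.2%; both groupings were chosen after the data were examined. The 95% intervals of the members' small groups were wide, up to 45.9% for the 6 members in the weakest. Peaks with low fold enrichment can still be tall where the background is high: HNRNPL had 97 fragments over a background of 14.9, and U2AF1L4 had 61 over 7.66. Both lie on the long arm of chromosome 19, where the 7 members had a median DMSO background of 5.31 fragments, against 2.21 for the other bound members.

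**Figure D3:**
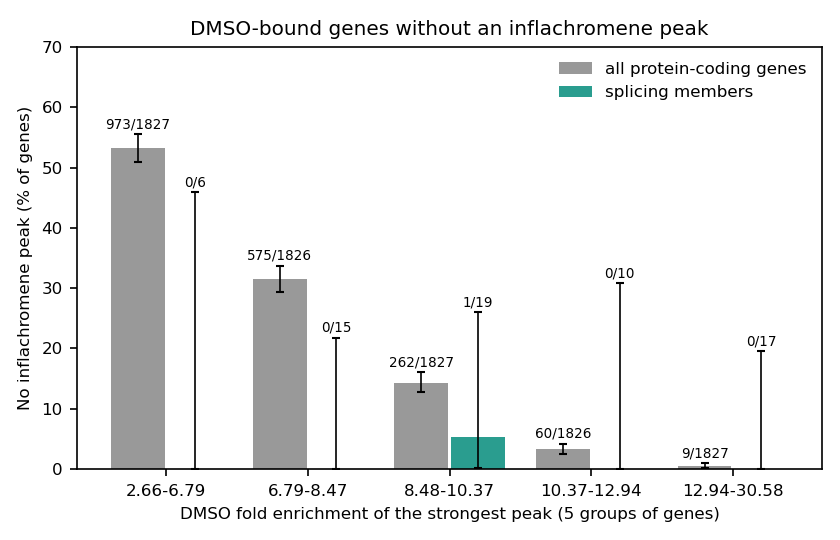
Share of DMSO-bound genes without an inflachromene peak (percent, bars from 0) in 5 groups of genes by DMSO fold enrichment, for all protein-coding genes (grey) and members (green); error bars are exact binomial 95% intervals, and the labels give genes without a peak over genes in the group. In the weakest group 973 of 1827 genes but 0 of 6 members lacked an inflachromene peak, and U2AF1 is the only member counted, in the middle group. SRSF8 and SRSF1, in the weaker groups, had an inflachromene peak that did not overlap their strongest DMSO peak.

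Other parts of the splicing machinery were taken as a list of 123 genes outside the 7 name prefixes. A DMSO peak was found at 104 (84.6%, against 45.7% of all protein-coding genes) and an inflachromene peak at 94 (76.4%, against 38.0%). Of these genes 91 had both, and 13 had only a DMSO peak. Only an inflachromene peak was found at 3 of the 94, against 4.45% of all inflachromene-bound genes. Of the 104, 12.5% (6.83 to 20.4) had no inflachromene peak, against 1.49% of the DMSO-bound members and 20.6% of all DMSO-bound genes. These differences were not tested. Those in DMSO alone were the kinase genes DYRK1A (31 fragments) and SRPK1 (14), the paraspeckle gene PSPC1 (31), SYF2 (21), the SMN complex genes GEMIN6 (18), GEMIN2 (15) and DDX20 (13), and ZCRB1, CELF1, ELAVL1, CWC27, ZMAT2 and LSM6, with 9 to 17 fragments. SNRNP48, CWC22 and PTBP2 had a peak of 11, 11 and 14 fragments in inflachromene alone. All 11 genes of branch point recognition and all 9 of the exon junction complex had both.

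By DMSO fold enrichment, the 5 strongest peaks on that list were at DHX38, CASC3, SRRM1, SNRNP40 and TIAL1. DHX38, a helicase gene of the second catalytic step, had 46 fragments in DMSO and 50 in inflachromene at 19.4-fold and 18.4-fold. CASC3, of the exon junction complex, had 100 and 64, a ratio of 0.640 (0.460 to 0.885), and TIAL1 had 94 and 58, a ratio of 0.617 (0.437 to 0.865). SRRM1 had 76 and 53 fragments and SNRNP40 had 47 and 36. The median ratio over the 91 genes was 0.870. For cytosolic ribosomal protein genes and their paralogs, 68 of 86 had both peaks with a median ratio of 0.839, and 7 of 75 DMSO-bound genes had none in inflachromene. For RNA polymerase II and Mediator genes, 30 of 48 had both, with a median ratio of 0.785, and 3 of 33 had none. The shares without an inflachromene peak were 9.33% for the ribosomal protein genes and 9.09% for these genes, against 20.6% of all DMSO-bound genes. The median ratio over all genes bound in both was 0.821.

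The summits lay just upstream of the transcription start. The direction of transcription was known for 65 members, 60 of them bound in DMSO. The strongest DMSO peak had its summit within 1000 bp of the annotated start at 59 of these 60 genes, against 91.4% of all bound genes with a known start. The exception was SRSF11, whose summit was 81 bp upstream of the gene's outermost end, 15765 bp upstream of the annotated start. Of the 59, 53 had the summit upstream of the start (89.8%, against 82.0% of all genes). It lay within 250 bp upstream at 46 (78.0%, against 71.6% of all genes). The median position was 76 bp upstream for the members and 83 bp upstream for all genes in DMSO. In inflachromene it was 110 and 90 bp upstream.

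A few members had their strongest peak inside the gene. HNRNPH1 and its paralog HNRNPH3 had summits 287 and 285 bp downstream of the start in DMSO and 285 and 281 bp downstream in inflachromene. HNRNPL had it 365 bp downstream in DMSO and 358 bp in inflachromene. Between the libraries the summit moved by a median of 35.5 bp over the 64 members with overlapping peaks, against 36 bp over all genes. It moved by at most 50 bp at 41 of these members (64.1%, against 63.1% of all genes with overlapping peaks). The largest move was at HNRNPUL2, where 1 DMSO peak of 1009 bp overlapped 2 inflachromene peaks, with summits 25 and 654 bp upstream of the start.

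**Figure D4:**
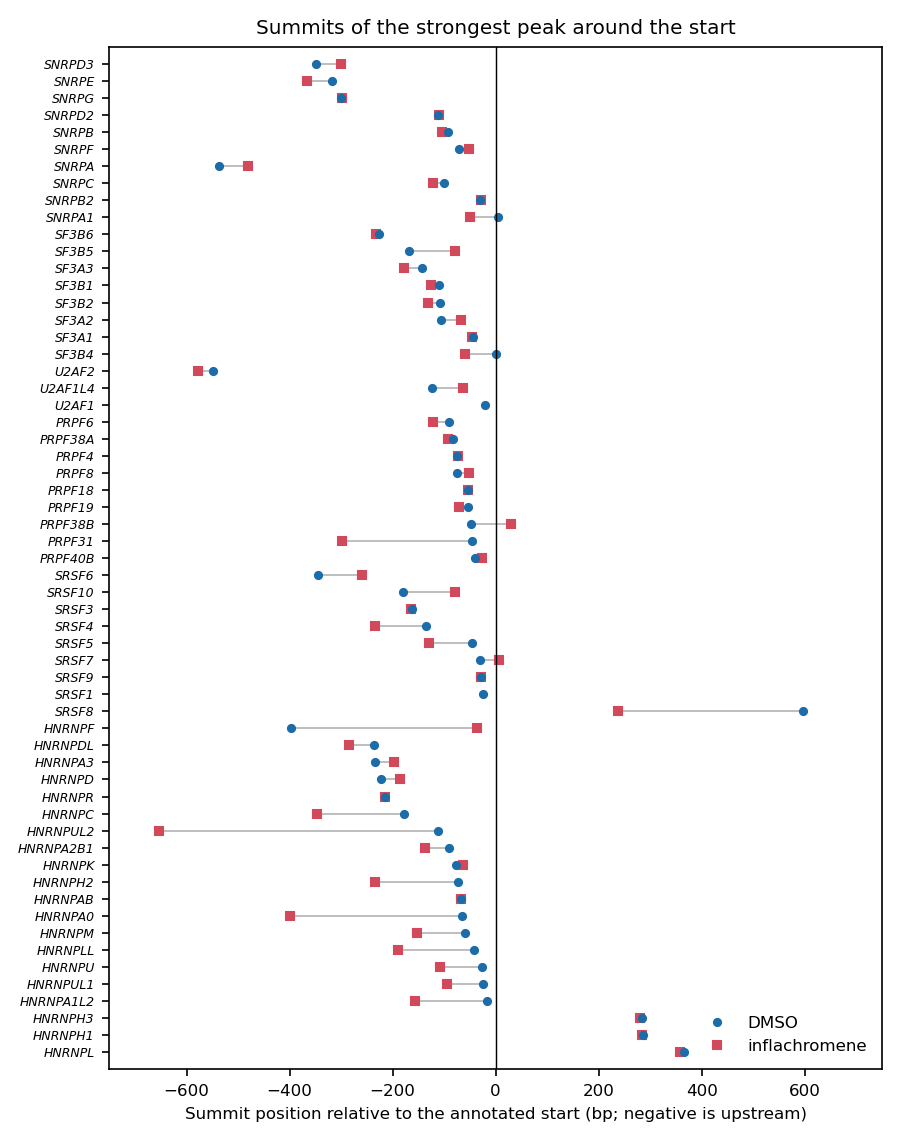
Position of the summit relative to the annotated start in bp (negative is upstream; linear axis) for the 59 members whose strongest DMSO peak lay within 1000 bp of it, DMSO as circles and inflachromene as squares, ordered by protein group. Of these, 53 DMSO summits are upstream and SRSF8, HNRNPH1, HNRNPH3 and HNRNPL are downstream in both libraries; U2AF1 and SRSF1 have no square.

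More than 1 DMSO peak was found at 11 members and more than 1 inflachromene peak at 6. The matching shares of all genes are not given here, so these counts cannot be called high or low. HNRNPA1 had 60 and 48 fragments at 2 DMSO summits and 50, 41 and 22 at 3 inflachromene summits. HNRNPDL had a second summit 700 bp inside the gene, with 26 fragments in DMSO and 24 in inflachromene. SRSF5 had one 607 bp inside, with 21 fragments, and 16 in inflachromene. At HNRNPA3 a second DMSO peak of 21 fragments had no counterpart in inflachromene, as had peaks of 32 fragments at U2AF1L4 and of 18 and 17 near the 3′ end of SF3B2. At SF3B3 and HNRNPK, 2 DMSO peaks were overlapped by 1 inflachromene peak.

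At members, as at other bound genes, the strongest summit often lay near an end of another gene. Such peaks cannot be credited to the splicing gene alone. The strongest summit lay within 1000 bp of an end of another protein-coding gene at 26 of the 67 bound members (38.8%, against 31.4% of all bound genes). A start on the opposite strand within 1000 bp upstream was found for 13 of the 65 members (20%), against 10.3% of all genes and 17.5% of DMSO-bound genes. These pairs were PRPF31 with TFPT, PRPF38A with ORC1, PRPF4 with CDC26, SF3A2 with PLEKHJ1, SF3B6 with FAM228B, SRSF9 with DYNLL1 and SNRPD2 with QPCTL. The others were SNRPA with ACTMAP, U2AF1L4 with PSENEN, HNRNPA2B1 with CBX3, HNRNPDL with ENOPH1, HNRNPH2 with GLA and HNRNPUL2 with TTC9C. The median ratio was 0.810 over these 13 members and 0.863 over the 46 members with a start but no such partner. Other shared summits, without a head-to-head start, included those at PRPF40B (FAM186B), PRPF6 (SAMD10), SF3A1 (CCDC157), SF3B4 (MTMR11) and SRSF11 (LRRC40). The same held at SNRPD3 (GUCD1), HNRNPH3 (PBLD), HNRNPK (RMI1), HNRNPU (LOC124904588) and HNRNPUL1 (AXL). SF3B3 (COG4), SRSF2 (MFSD11) and HNRNPA1 (CBX5) also shared a summit. No annotated start was at hand for them, so a head-to-head partner was not searched for.

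The promoter sequences of the groups differed in the motifs they hold. RefSeq promoters, 250 bases before to 50 after the start, were at hand for 65 members and 15812 protein-coding genes, and were searched on both strands for short exact motifs. The ETS core CCGGAAG was present in 21 of the 60 promoters of bound members (35%), against 22.5% of all DMSO-bound genes, and the CCAAT box, written CCAAT, the site of NF-Y, in 26 (43.3%), against 40.1%. By group, CCGGAAG was present in 13 of 18 promoters of bound Sm, U1, U2, SF3A and SF3B genes (72.2%), against 14.2% of all genes, bound or not. These groups were pooled after their values were seen. The motif was found in 3 of 20 promoters of bound hnRNP genes. The CCAAT box was present in 13 of those 20 (65.0%), against 36.3% of all genes, bound or not, and in 5 of the 18. Both motifs together were found in 4 members, HNRNPF, HNRNPLL, SNRPA1 and SNRPD2. Thus in the sequences shown above, CCAAT or its reverse ATTGG stands in capitals in those of HNRNPC, HNRNPLL, HNRNPR and PRPF8. CCGGAAG or CTTCCGG stands in capitals in those of SNRPB, SF3A3 and also HNRNPLL.

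The remaining motifs were the GC box GGGCGG (39 of 65 members, 60.0%, against 58.5% of all genes), the E-box CACGTG (8, or 12.3%, against 8.87%) and TATAAA (6, or 9.23%, against 9.64%). Among DMSO-bound genes, the GC box was in 61.7% of the 60 member promoters and 74.3% of all, TATAAA in 10% and 4.84%, and the E-box in 13.3% and 10.8%. The E-box was in 7 of the 20 bound hnRNP promoters (35%). The NRF1 core GCATGCGC was in 4 members, U2AF1 and U2AF1L4 among them (6.15%, against 4.26%). AAGATGGC of YY1 was in 4 (6.15%, against 3.91%), CTCGCGAG of ZBTB33 in 4 (6.15%, against 1.53%) and the AP-1 site TGANTCA in 2 (3.08%, against 5.76%). The CRE TGACGTCA was in none of the 65, against 2.59% of all genes. Matches of CCGGAAG and CCAAT cannot overlap each other, while GGGCGG can overlap others. Each match is a description of letters and says nothing of which factor binds there.

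**Figure D5:**
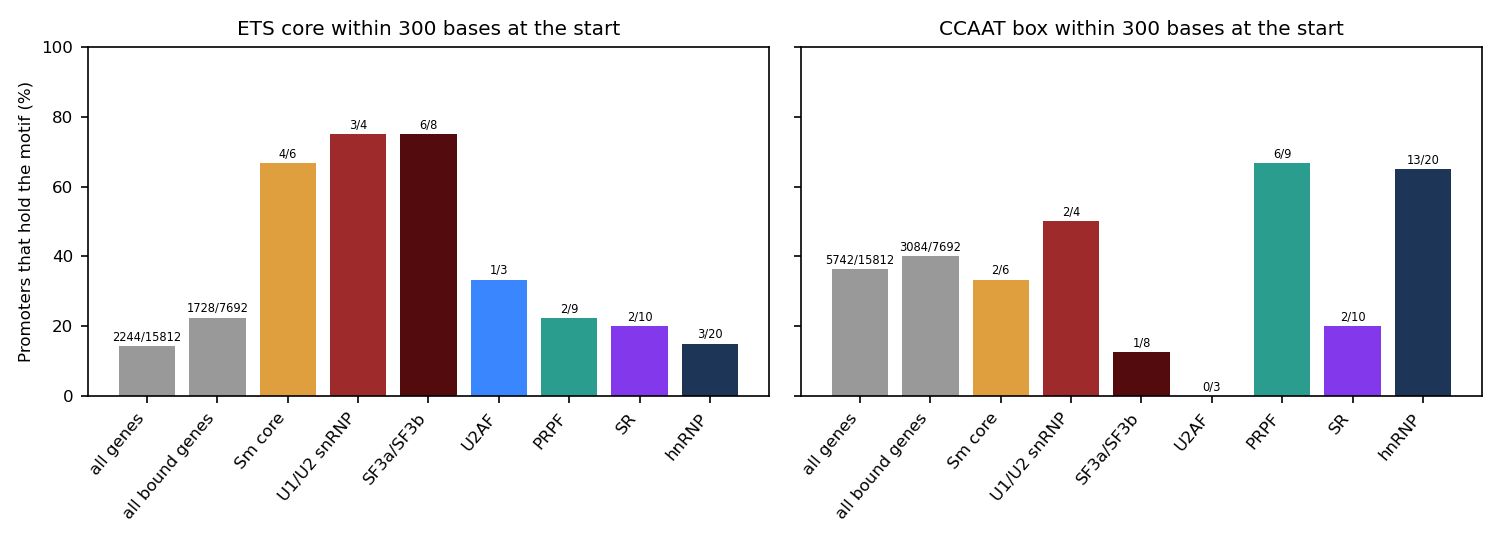
Share of promoters (percent, bars from 0; 300 bases each) that hold CCGGAAG (left) or CCAAT (right) on either strand, for all protein-coding genes, all genes with a DMSO peak, and bound members by protein group; labels give promoters with the motif over promoters. The ETS core is in 4 of 6 Sm, 3 of 4 U1 and U2 and 6 of 8 SF3A and SF3B promoters, and the CCAAT box in 13 of 20 hnRNP and 6 of 9 PRPF promoters.

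Set beside the pileups, the members' median ratio differed more with CCGGAAG than with the CCAAT box. The median ratio was 0.941 over the 21 members with CCGGAAG and 0.816 over the 38 without it. Over all such genes the medians were 0.828 with the motif and 0.816 without. For the CCAAT box the medians were 0.819 with it (26 members) and 0.828 without (33), and 0.822 and 0.818 over all genes. Bound members had a median promoter GC content of 62.0%, against 65.7% for all bound genes. The 5 unbound members with a promoter had a median of 45.3%, against 58.0% for all genes with no peak. The near-identical copies HNRNPCL1, HNRNPCL2 and HNRNPCL4 had 45.3%, 41.7% and 40.3%, while SNRPN had 56.0% and SRSF12 77.0%.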

How the data were processed

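ChIPmentation peak lists of 1 DMSO and 1 inflachromene sample of PANC-1 were used. The submitters' processing notes name the hg38 build, deepTools 3.5.6 and MACS2. Aligner, control and pooling were not stated in the sources used here. The deposited rows give a fold enrichment (a ratio), −log10 p and −log10 q, reaching down to q = 0.001, and an integer score, which was not used. No read counts are given; the whole-number pileup behind each summit was recovered from the deposited fold enrichment, (pileup + 1)/(background + 1), and the Poisson p-value, with a match within 0.001 in −log10 p for all 15186 and 10836 peaks. The step was tested on simulated data. Relative depth was inferred from the lowest background and the fragment length.

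Peaks on chromosomes 1 to 22 and X were placed by summit within 1000 bp of either end of 19974 RefSeq protein-coding genes (GRCh38.p14). For a gene's ratio, its strongest DMSO peak was paired with the overlapping inflachromene peak, or else with the strongest one at the gene; SRSF1 and SRSF8 were paired without overlap. Starts and promoters came from RefSeq, for 65 of 74 members. Intervals are exact (Poisson, Clopper-Pearson) at 95% and cover counting error only. Each treatment had 1 sample, so no test was made.

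Named were members with a peak in 1 list or none, the 3 with the highest fold enrichment of each prefix, the 5 lowest and 5 highest ratios at a mean pileup of at least 20, members with several peaks or a shared summit, and further members by role. One PRPF member enters the counts and medians but is not reported here by name. Members and lists were chosen with earlier results of these data known. Python 3.11.15, numpy 2.4.6, scipy 1.17.1 and pandas 2.3.3 were used.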

Additional observations from a re-analysis of the deposited data

How the results depend on the processing

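Windows of 500 and 2500 bp, a stricter q, equal list lengths, the annotated start alone and subsets of the members were tried. Of 54 alternative values 45 stayed near the value reported, that is, counts within 1.5 times of it and the median ratio between 0.796 and 0.935, its order interval. The number of members in DMSO alone was 2 with a window of 500 bp and 2 with the annotated start only (SRSF1 and U2AF1 in both cases), and 0 without copies and duplicated genes, which leaves out U2AF1. It was 7 when the strongest peak had to overlap reciprocally by 50% (U2AF1, SRSF1, SRSF8, HNRNPUL2, SF3A1, SF3B3 and SNRPD1). Members with no shared summit were 41 bound in DMSO and 40 in inflachromene, as fewer genes were counted. Of these 41, U2AF1 was in DMSO alone. With fold enrichment in place of pileup, 3 members were at least 1.5-fold lower, against 9. The median ratio was 0.824 to 0.869 over all alternatives. Divided by fragment numbers it was 0.858, with 6 members 1.5-fold lower. Depth limits the weak peaks: at SF3A1, with 21 and 13 fragments, the interval of the ratio ran from 0.285 to 1.30. No paired analysis was possible because each treatment has 1 sample.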
